A study of Bos grunniens with 36 samples.

Results

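Aminoacyl-tRNA synthetases are the enzymes that attach each amino acid to its transfer RNA before translation. Mammalian cells keep a cytosolic and a mitochondrial system, both encoded in the nucleus: the first serves the translation of nuclear mRNAs, in a lactating gland those of the milk proteins included, and the second serves the few proteins made inside mitochondria. Several cytosolic synthetase genes, with amino acid transporters and serine synthesis enzymes, are known targets of the transcription factor ATF4 in the amino acid response.

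The family was taken by name from the array's annotation, as every gene named with a single letter followed by ARS or ARS2, and EPRS. This gave 34 genes of the 20110 genes or unnamed transcripts measured, 18 cytosolic and 16 mitochondrial, the latter being those whose name ends in 2. For 14 amino acids both a cytosolic and a mitochondrial member were measured. GARS and KARS are counted as cytosolic, although each of these genes is known to encode both forms, and EPRS joins the glutamate and proline enzymes in a single protein. The name pattern leaves out FARSA and FARSB, the subunits of the cytosolic phenylalanine enzyme.

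The tissue was mammary parenchyma biopsied from 4 female yaks (Bos grunniens) at 9 times: day -30 and -15 before calving and day +1, +15, +30, +60, +120, +180 and +240 after it. The same 4 animals were sampled each time, alternating between the left and right rear udder, and no treatment or genotype is given. Each biopsy went to 1 single-colour array of a cattle design, giving 36 arrays. Values are log2 signals relative to the array's 75th percentile, a difference is a day's mean less the mean at day -30 unless stated otherwise, and a gene is called at a limma p under 0.05 after Benjamini-Hochberg adjustment over all genes.

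The deposited record of which array belongs to which sample is not settled. Each of the 36 columns of the value table equalled 1 scanner file to within a standard deviation of 4.15e-07 on the log2 scale, while the next best file differed by at least 0.385. That file was deposited under another sample in all 36 cases, and the day agreed for 9 arrays and differed for 27. Days below are those of the table's columns. In that record each of the 9 slides held the 4 arrays of 1 day, so day and slide cannot be told apart.

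Arrays differed in brightness (75th percentile of the raw scale, 1029 to 6450 intensity units). The 4 arrays of day -30 were bright, at 4854 to 5752 units, and all 4 arrays of day +15 (1029 to 2114 units) and of day +60 (1278 to 2512 units) lay below that range. The mean log2 signal of 6 milk protein genes ran from 3.54 to 5.08 at day -30 and from 7.64 to 8.42 at day +60. It was 0.04 and -0.08 in animal 4 at day +120 and day +180, against 3.54 in the next lowest array. Of 31 measured markers of luminal, myoepithelial, fibroblast, adipocyte, endothelial, leukocyte and plasma cells, 30 were above background on all arrays. The tissue is a mixture, so fewer cells of a type and less RNA per cell cannot be told apart.

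Each gene is represented by the 60-base probe with the highest mean signal, and all 34 were above background on all 36 arrays. Probes for cytosolic and mitochondrial genes of the same amino acid shared runs of at most 4 to 7 bases. The sequences below are of cattle and come from the array files. They are shown as examples of the probes behind the results that follow, from members called at day +60. More than 1 called probe is printed for GARS and VARS2, and the representative probe alone for SARS, PARS2, RARS2 and AARS2. SARS and AARS2 also had more than 1 called probe. No base is capitalised, since no motif was searched.
GARS, middle probe: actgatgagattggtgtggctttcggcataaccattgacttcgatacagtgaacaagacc
GARS, upstream probe: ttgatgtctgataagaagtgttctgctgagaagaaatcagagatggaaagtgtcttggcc
SARS: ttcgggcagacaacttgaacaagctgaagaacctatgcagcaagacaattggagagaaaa
PARS2: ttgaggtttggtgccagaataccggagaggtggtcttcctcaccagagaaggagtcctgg
RARS2: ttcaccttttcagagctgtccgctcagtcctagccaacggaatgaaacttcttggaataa
AARS2: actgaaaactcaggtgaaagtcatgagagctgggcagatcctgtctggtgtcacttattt
VARS2, representative probe: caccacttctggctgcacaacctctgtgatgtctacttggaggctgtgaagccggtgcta
VARS2, second probe: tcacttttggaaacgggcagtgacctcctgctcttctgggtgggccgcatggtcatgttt

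On the cattle assembly UMD 3.1 these GARS probes lie at chr4:66104892-66104951 and chr4:66134522-66134581, both on the minus strand, and the representative GARS probe lies at chr4:66103092-66103151. The SARS probe is at chr3:34295766-34295825 on the minus strand and the PARS2 probe at chr3:92099963-92100022 on the plus strand. The RARS2 probe is at chr9:63299111-63299170 on the plus strand and the AARS2 probe at chr23:17609054-17609113 on the minus strand. The VARS2 probes are at chr23:27951687-27952778, where the 60 bases are spread over 1092 positions, and at chr23:27954045-27954103, both on the minus strand. Exon and UTR annotation was not used here.

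Over the 9 days 15 of the 34 members changed by the F test, 7 cytosolic and 8 mitochondrial, where 42.3% of all genes were called. SARS2, the mitochondrial serine enzyme, had the lowest adjusted p of the family (0.000186), and low values were also measured for GARS for glycine (0.00191), RARS2 for arginine (0.00329), AARS2 for alanine (0.00491) and VARS2 for valine (0.00997). Also called were AARS, PARS2, TARS, NARS, MARS, NARS2, IARS, LARS2 and YARS, with adjusted p from 0.0103 to 0.0295. The share of members called was close to that of all genes. Without animal 1, 2, 3 or 4 the F test called 6, 4, 5 and 12 members. The share of all genes by the F test in these fits is not given here, so these counts cannot be set against it.

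The comparison with most members called was day +60 against day -30. There 10 cytosolic members rose (AARS, CARS, GARS, HARS, IARS, MARS, NARS, SARS, TARS and YARS) and 7 mitochondrial members fell (AARS2, LARS2, PARS2, RARS2, SARS2 and VARS2 among them). By limma on these representative probes no cytosolic member fell and no mitochondrial member rose, with 0 cytosolic members lower and 2 mitochondrial members (IARS2 and YARS2) higher at an unadjusted p under 0.05. Of all genes 29.3% were called, 12.6% higher and 16.7% lower. The median difference was 0.83 over the 18 cytosolic members and -0.57 over the 16 mitochondrial members, against -0.12 over all genes, all on the log2 scale. The 17 called members each moved the same way in 4 of 4 animals, as did 96% of all called genes. In fits without animal 1, 2, 3 or 4, which rest on 27 arrays, 9, 8, 9 and 10 members were called. Of all genes 18.6%, 18.6%, 13% and 21.1% were called in these fits.

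**Figure D1:**
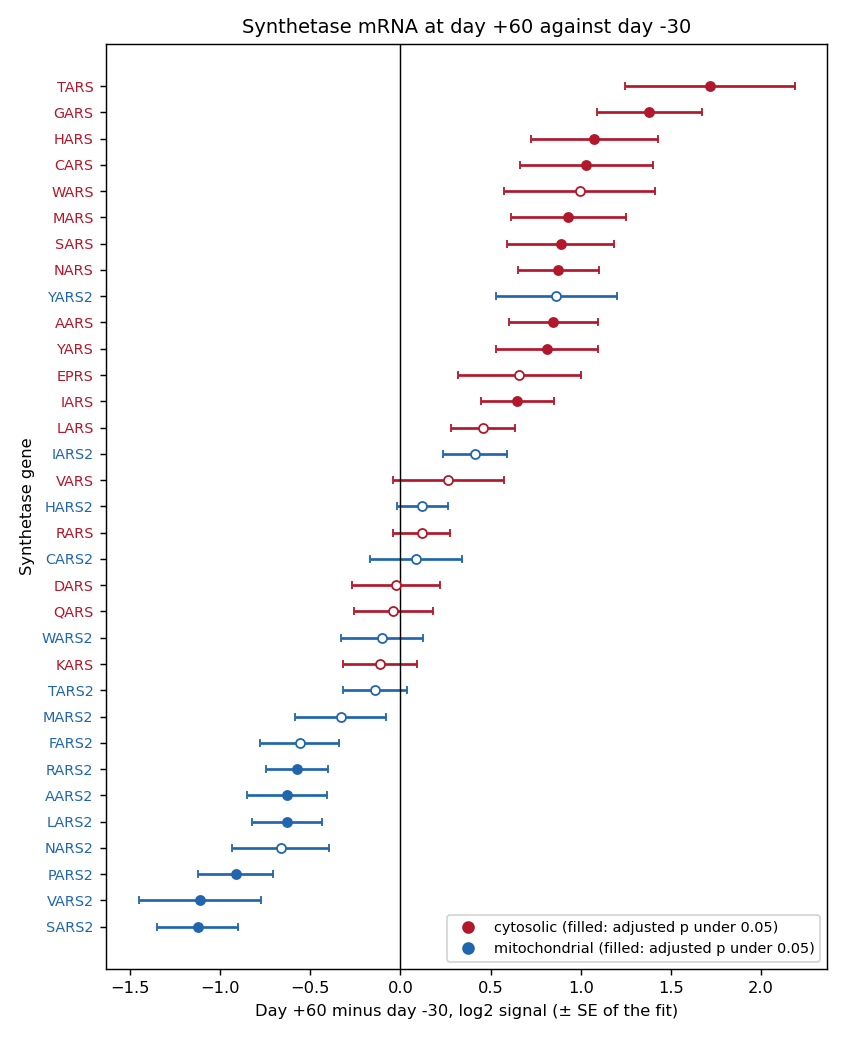
Difference in log2 signal between day +60 and day -30 for 33 synthetase genes, 1 row each, ordered by size, with bars of ± 1 standard error of the fit; red is cytosolic, blue mitochondrial, and filled points have an adjusted p under 0.05. The 10 filled red points lie right of 0 and the 6 filled blue points left of it, with YARS2 (0.86) the blue open point among the red ones.

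These differences moved with 2 properties of the measurement. Among all genes, those whose probe had a mean signal above 2 were called higher in 42.6% and lower in 0.866% of cases at day +60 (median difference 0.60), while those below -4 were called higher in 2.29% and lower in 28.3% (median difference -0.62). Of the 12 cytosolic members above 2, 6 rose, a share near that of other probes of such signal. In the range from 0 to 2, where 17.1% of all genes were called higher and 7.68% lower, 3 of 5 cytosolic members rose and 1 of 8 mitochondrial members fell. In the range from -2 to 0, where 9.1% were called higher and 17.5% lower, the 1 cytosolic member, CARS, rose and all 4 mitochondrial members fell. Quantile normalization, which sets all arrays to 1 distribution of signals, left a cytosolic median of 0.30 and a mitochondrial median of -0.50. Under it 6 cytosolic members were called higher, KARS (-0.63) and QARS (-0.58) were called lower, and 5 mitochondrial members were called lower. Of all genes 21.8% were called under it, 47.9% of these higher.

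Brightness was the other property. With the array's brightness as a covariate the cytosolic median at day +60 was -0.09 and limma called no cytosolic member (0 higher and 1 lower at an unadjusted p under 0.05), while the mitochondrial median was -0.47 and 3 mitochondrial members, FARS2 and SARS2 among them, were called lower. That fit called 13.8% of all genes, of which only 12% were higher, and the median over all genes was -0.12. Of the 17 calls 2 remained, and CARS (-0.02), HARS (-0.15), MARS (-0.13), TARS (-0.06) and YARS (-0.13) changed sign. Brightness did not overlap between day -30 and day +60. Neither the rise of the cytosolic members nor the fall of the mitochondrial members can be told apart from the dimmer arrays of day +60.

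GARS encodes the glycine enzyme. Its log2 signal at day -30 was 2.31, 2.18, 2.54 and 2.22 in animals 1 to 4, and at day +60 it was 3.65, 3.87, 3.48 and 3.78. Every day +60 array was above every day -30 array, and the difference was 1.38 ± 0.29 (SE, n = 4 a day; adjusted p = 0.00106). Such absence of overlap between these days was found for 36.2% of all genes and 88.6% of all called genes. For other days compared with day -30, here and below, the share of all genes without overlap is not given. The other 2 GARS probes, printed above, gave 1.40 ± 0.29 and 1.42 ± 0.36. All 3 probes, at 3 places along the gene, were thus called higher with differences within 1 standard error of each other. At day +15 GARS was already higher by 1.09 ± 0.29 (adjusted p = 0.0129), with 3.14, 3.40, 3.16 and 3.90 in animals 1 to 4. Later the animals diverged: at day +120 the GARS values were 2.80, 3.82, 2.83 and 2.24, which overlap with day -30, and the comparison was not called.

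TARS, the threonine enzyme, had the largest difference of the family. Its values were 1.23, 1.89, 1.73 and 1.81 at day -30 and 3.14, 3.19, 3.39 and 3.80 at day +60, again without overlap. TARS was higher by 1.72 ± 0.47 at day +60 (SE, n = 4; adjusted p = 0.00801) and by 1.86 ± 0.47 at day +15 (adjusted p = 0.00972). Its standard deviation over the 4 animals rose to 1.16 at day +120, where the array of animal 4 with little milk protein mRNA read 0.53 and that of animal 2 read 3.34. TARS was measured by 1 probe.

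Of the other cytosolic enzymes that rose at day +60, NARS (asparagine) was higher by 0.88 ± 0.22 and AARS (alanine) by 0.85 ± 0.25. MARS (methionine, which also charges the initiator tRNA) was higher by 0.93 ± 0.32, SARS (serine) by 0.89 ± 0.30 and YARS (tyrosine) by 0.81 ± 0.28. Probes of a gene did not all pass the test: 4 of 5 were called higher for NARS, 2 of 3 for SARS, 1 of 3 for MARS and YARS, and 1 of 2 for AARS and IARS. HARS (histidine) and CARS (cysteine), each with a single probe, were higher by 1.08 ± 0.35 and 1.03 ± 0.37, and IARS (isoleucine) by 0.65 ± 0.20. The second IARS probe differed by 0.15 ± 0.24.

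The remaining 8 cytosolic members did not pass the test at day +60. WARS (tryptophan, and known to be induced by interferon) differed by 0.99 ± 0.42 (adjusted p = 0.073) and EPRS by 0.66 ± 0.34 (adjusted p = 0.138), with 1 of its 2 probes called higher. LARS (leucine) differed by 0.46 ± 0.18 (adjusted p = 0.0528) and VARS (valine) by 0.27 ± 0.31. The differences of RARS (0.12 ± 0.16), DARS (-0.02 ± 0.24), QARS (-0.04 ± 0.22) and KARS (-0.11 ± 0.20) were all smaller than their standard errors. EPRS, LARS, RARS, DARS, QARS, KARS, MARS and IARS belong to the multisynthetase complex, of which MARS and IARS rose. The 3 scaffold genes of that complex, AIMP1 (0.17), AIMP2 (0.29) and EEF1E1 (0.61), were not called.

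**Figure D2:**
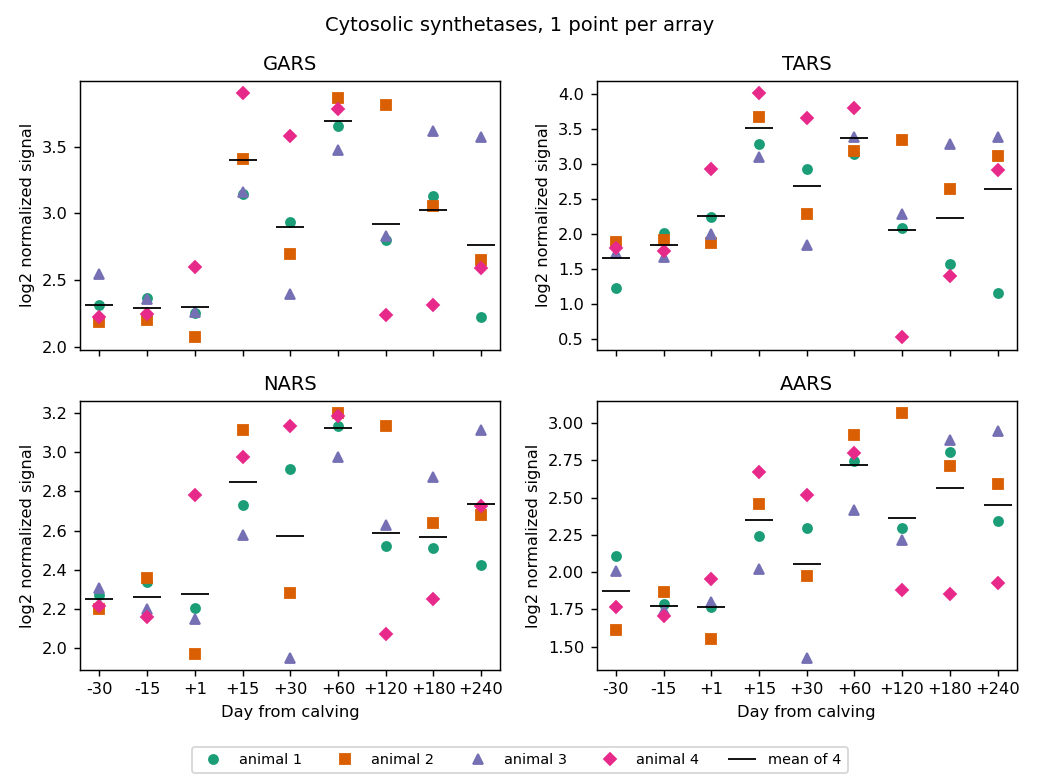
Normalized log2 signal of 4 cytosolic synthetase genes on each of the 36 arrays, by day from calving; colours and symbols are the 4 animals and the black line is the mean of 4. The day +60 points lie above all day -30 points in each panel, and the animals lie further apart at day +30, where TARS read 1.85 to 3.67, and at day +120, where it read 0.53 to 3.34.

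Among the mitochondrial members SARS2 was the most often called, lower in 5 of 8 comparisons with day -30. Its signals at day -30 were -0.77, -1.25, -0.83 and -1.30 in animals 1 to 4, at day +30 -1.87, -2.42, -2.30 and -2.58, and at day +60 -1.89, -2.12, -2.59 and -2.06. All arrays of both later days lay below those of day -30. SARS2 fell by 1.26 at day +30 (SE 0.22, n = 4; adjusted p = 0.00146) and by 1.13 at day +60 (SE 0.22; adjusted p = 0.000657), and was also called at day +15, +120 and +240. At day +180, where animal 1 read -0.56 and the others -1.78 to -1.59, it was not called. It is 1 of the 2 members that kept their call at day +60 with brightness as a covariate (-0.79). SARS2 was measured by 1 probe.

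RARS2, for mitochondrial arginine tRNA, read 0.28, 0.95, 0.54 and 0.78 at day -30 and -0.16, -0.07, 0.37 and 0.14 at day +60. The groups overlap through animal 1 at day -30, yet each animal was lower at day +60 than at day -30. RARS2 differed by -0.57 ± 0.17 at day +60 (adjusted p = 0.0148) and by -0.73 ± 0.17 at day +180 (adjusted p = 0.00399), where all values, from -0.24 to -0.02, lay below those of day -30.

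AARS2, for alanine, read -0.29, -0.53, -0.54 and -0.91 at day -30 and -1.46, -1.06, -1.28 and -1.46 at day +1. It was thus already below its day -30 range on the day after calving, with a difference of -0.75 ± 0.22 (adjusted p = 0.0389). AARS2 was called at each day up to day +60 (-0.85 ± 0.22 at day +30, -0.63 ± 0.22 at day +60) and read -0.46, -0.24, -0.43 and -0.74 at day +180, inside the day -30 range but for animal 2, which was above it. Of its 4 probes 2 were called lower at day +60, at chr23:17609054-17609113 and chr23:17609561-17609620. The other 2 lie apart from these, and that at chr23:17675135-17675716 had the opposite sign without passing the test (0.52 ± 0.50).

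VARS2, for valine, had a dim probe. It read -2.79, -3.85, -2.84 and -3.93 at day -30, -4.98, -4.81, -3.88 and -4.40 at day +1, and -4.45, -4.38, -4.73 and -4.29 at day +60. VARS2 differed by -1.17 ± 0.34 at day +1 and by -1.11 ± 0.34 at day +60 (adjusted p = 0.0154), and its second probe gave -0.84 ± 0.19 at day +60. PARS2, for proline, differed by -0.91 ± 0.21 at day +60 (adjusted p = 0.0022). The normexp background correction, with an offset of 50, was also used in place of the scanner's. Both dim genes then changed sign at day +60, VARS2 to 0.37 and PARS2 to 0.43. Under that setting the median difference over all genes was 0.36, against -0.12 in the main fit. The values of VARS2 and PARS2 thus lay near that of all genes. The cause of their change of sign was not tested.

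**Figure D3:**
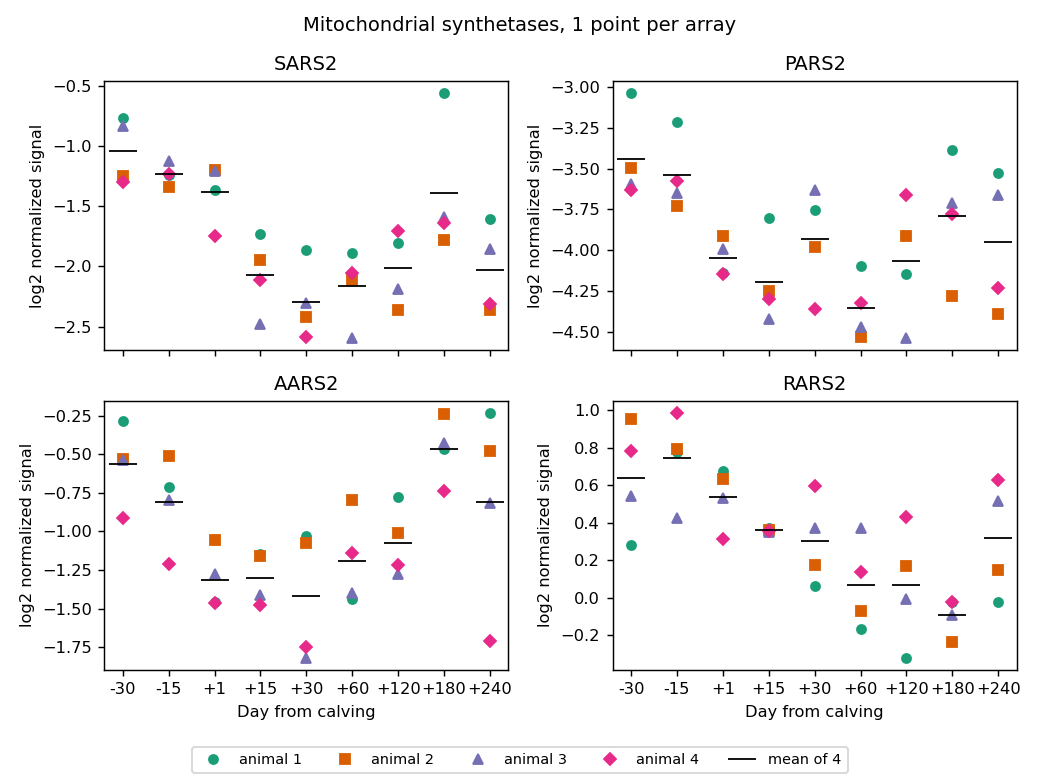
Normalized log2 signal of 4 mitochondrial synthetase genes on each of the 36 arrays, by day from calving, with symbols for the 4 animals and a black line at the mean of 4. AARS2 and PARS2 lie below their day -30 ranges at day +1 and SARS2 at day +15, RARS2 is at its lowest mean at day +180, and animal 1 stands apart at day +180 in SARS2 (-0.56).

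LARS2 (leucine) fell at day +1 (-0.85 ± 0.20) and day +60 (-0.63 ± 0.20). NARS2 (asparagine) fell at day +1 (-0.89 ± 0.27) and day +180 (-1.09 ± 0.27). At day +60 the representative NARS2 probe differed by -0.66 ± 0.27 (adjusted p = 0.0592), while its other 2 probes were called lower. By these probes only YARS2 (tyrosine) and IARS2 (isoleucine) of the mitochondrial members were ever called higher, both at day +15, by 1.00 ± 0.34 and 0.59 ± 0.18 with the representative probes. At day +60 the second YARS2 probe was called higher too (0.77 ± 0.26; limma adjusted p = 0.0284). FARS2 for phenylalanine differed by -0.56 ± 0.22 at day +60 (adjusted p = 0.0509). MARS2, TARS2, WARS2, HARS2 and CARS2 lay between -0.33 and 0.12 at day +60 and were called in no comparison with day -30.

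Set side by side by amino acid, the cytosolic difference at day +60 was above the mitochondrial one in 13 of 14 pairs. The exception was tyrosine, with 0.81 for YARS and 0.86 for YARS2. Signal was not matched within pairs. In most pairs the cytosolic probe had the higher mean signal, as for serine (SARS 3.13, SARS2 -1.74). For cysteine, isoleucine and tyrosine (YARS 2.89, YARS2 4.37) the mitochondrial probe had it. Over all genes the difference at day +60 was higher for probes of higher signal, and the part of signal in the pair count was not tested. By the representative probes both genes were called, in opposite directions, for alanine (AARS 0.85, AARS2 -0.63) and serine (SARS 0.89, SARS2 -1.13). For leucine, arginine and valine the mitochondrial gene alone was called, and for cysteine, histidine, isoleucine, methionine, asparagine, threonine and tyrosine the cytosolic gene alone. The other probes of YARS2 and NARS2, given above, were called at day +60. The difference between the 2 genes of a pair was not tested. At day -15 the cytosolic difference was the higher in 6 of 14 pairs, at day +1 in 10, at day +15 in 12 and at day +30 in 13. At day +120 it was so in 12, at day +180 in 10 and at day +240 in 12. All these comparisons share the 4 arrays of day -30.

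The course of the family over the other days was as follows. At day -15 no member was called, and 0.00497% of all genes were, with 0 of 34 members at an unadjusted p under 0.05. At day +1, 4 members fell, all of them mitochondrial (AARS2, LARS2, NARS2 and VARS2), beside 6.24% of all genes (4.3% lower), and the mitochondrial median was -0.37 against 0.02 for the cytosolic members and -0.06 for all genes. Without animal 1, 2, 3 or 4 there were 1, 0, 0 and 2 calls at day +1, where the share of all genes in these fits is not given here.

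At day +15, 11 members were called beside 17.9% of all genes (10.2% higher and 7.71% lower). The cytosolic GARS, LARS, MARS, SARS and TARS rose, as did IARS2 and YARS2, while AARS2, PARS2, SARS2 and VARS2 fell. Without animal 1, 2, 3 or 4 there were 1, 4, 2 and 3 calls, and the share of all genes in these fits is not given here. The median difference was 0.59 for cytosolic members, -0.33 for mitochondrial members and -0.01 for all genes. As at day +60, every array was dimmer than those of day -30, and with brightness as a covariate limma called no member at day +15 (1 higher and 6 lower at an unadjusted p under 0.05), MARS and YARS2 both changing to -0.06.

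At day +30 AARS2, SARS2 and VARS2 were called lower beside 6.37% of all genes (4.26% lower), with a cytosolic median of 0.23. At day +120 SARS2 and 1 other mitochondrial member were lower beside 3.76% (2.7% lower). At day +180 3 mitochondrial members were lower, NARS2 and RARS2 among them, beside 17.4% (10.8% lower), and at day +240 2 were lower, SARS2 among them, beside 13.9% (7.08% lower). After day +60 no cytosolic member was called against day -30, although their median remained at 0.11, 0.27 and 0.34 at day +120, +180 and +240. In all 8 comparisons 21 of 34 members were called at least once: 15 calls of cytosolic members, all higher, and 27 of mitochondrial members, 25 of them lower. All 8 comparisons use the same 4 arrays of day -30, so these calls are not independent. The share of all genes called at least once is not given here, so the count cannot be set against it.

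Between neighbouring days limma called no member in any of the 7 comparisons. Of all genes it called 1.79% from day -15 to +1, 0.318% from day +1 to +15, 0.0149% from day +15 to +30 and 0.88% from day +30 to +60. It called 0.895% from day +60 to +120, 0.338% from day +120 to +180 and 0.801% from day +180 to +240. At an unadjusted p under 0.05 there were 6, 17, 1, 4, 9, 7 and 4 members in this order. The 17 from day +1 to day +15 included 14 of the 18 cytosolic members. The cytosolic median difference was 0.58, against 0.09 over all genes, and a fit to the 8 arrays of these days alone called 12 members. The share of all genes at an unadjusted p under 0.05 or in that fit is not given here, so these counts cannot be set against it. Brightness ran from 2084 to 5355 units at day +1 and from 1029 to 2114 units at day +15. From day +60 to day +120 all 18 cytosolic differences were negative, with a median of -0.53.

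**Figure D4:**
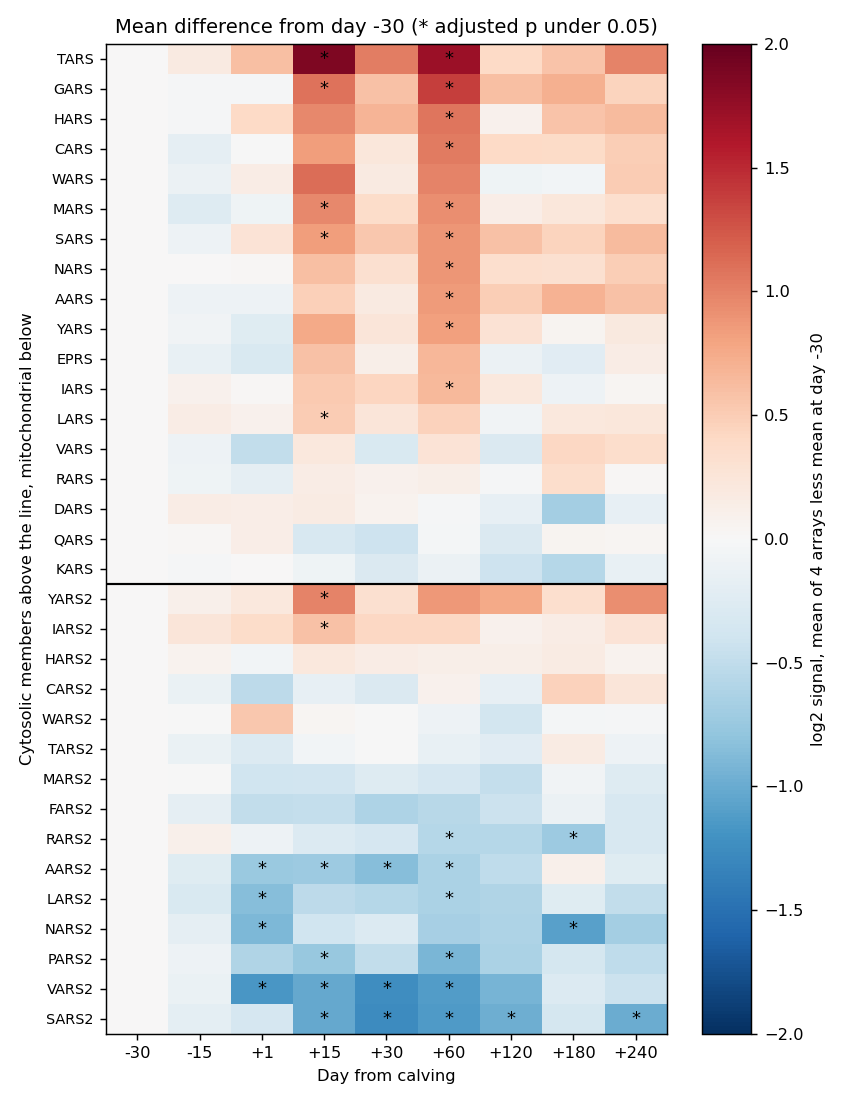
Difference in mean log2 signal from day -30 for 33 synthetase genes (rows, cytosolic above the line) at each day from calving (columns, n = 4 arrays each); red is higher, blue lower, and a star marks an adjusted p under 0.05. Stars stand on red cells at day +15 and day +60 and on blue cells from day +1 to day +240, the blue ones all in mitochondrial rows.

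The spread between animals differed from day to day. The median standard deviation of the cytosolic members was 0.15 at day -15, 0.47 at day +30, 0.20 at day +60, 0.53 at day +120, 0.56 at day +180 and 0.45 at day +240. Over all genes it was 0.23, 0.43, 0.34, 0.50, 0.58 and 0.51 on the same days. At day +1, +15, +30, +120 and +180 the array with the highest cytosolic median was the dimmest of its day. It also had the highest milk protein mean. On these days the array with the lowest cytosolic median was the brightest and had the lowest milk protein mean. Day +240 differed only in that animal 2, not the dimmest array, had the highest milk protein mean. On the days before calving the pattern did not hold in full. At day +30 animal 4 had a cytosolic median 0.75 above the day -30 means, a milk protein mean of 7.72 and a brightness of 1402 units, while animal 3 had -0.28, 3.94 and 5698 units. At day +120 animal 2 had 0.94, 8.44 and 1178 units, and animal 4 had -0.30, 0.04 and 6450 units. At day +60 it was not so: animal 4 had the highest cytosolic median (0.90) and the lowest milk protein mean (7.64), and animal 3, the dimmest at 1278 units, had the lowest cytosolic median (0.55). On the array of animal 4 at day +120, 1 of 18 cytosolic members was above its day -30 mean, and 2 of 18 were on the other array low in milk protein mRNA, that of animal 4 at day +180 (-0.31). The mitochondrial medians of those arrays were -0.32 and -0.33, where the other animals ran from -0.61 to -0.34 at day +120 and from -0.46 to 0.13 at day +180. The part of milk protein content and of brightness in these values was not tested separately. Without the 2 low arrays 23 members changed by the F test and 22 were called at day +60, 12 cytosolic higher, 9 mitochondrial lower and 1 mitochondrial higher. That fit called 34.1% of all genes at day +60, and its share of all genes by the F test is not given here.

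**Figure D5:**
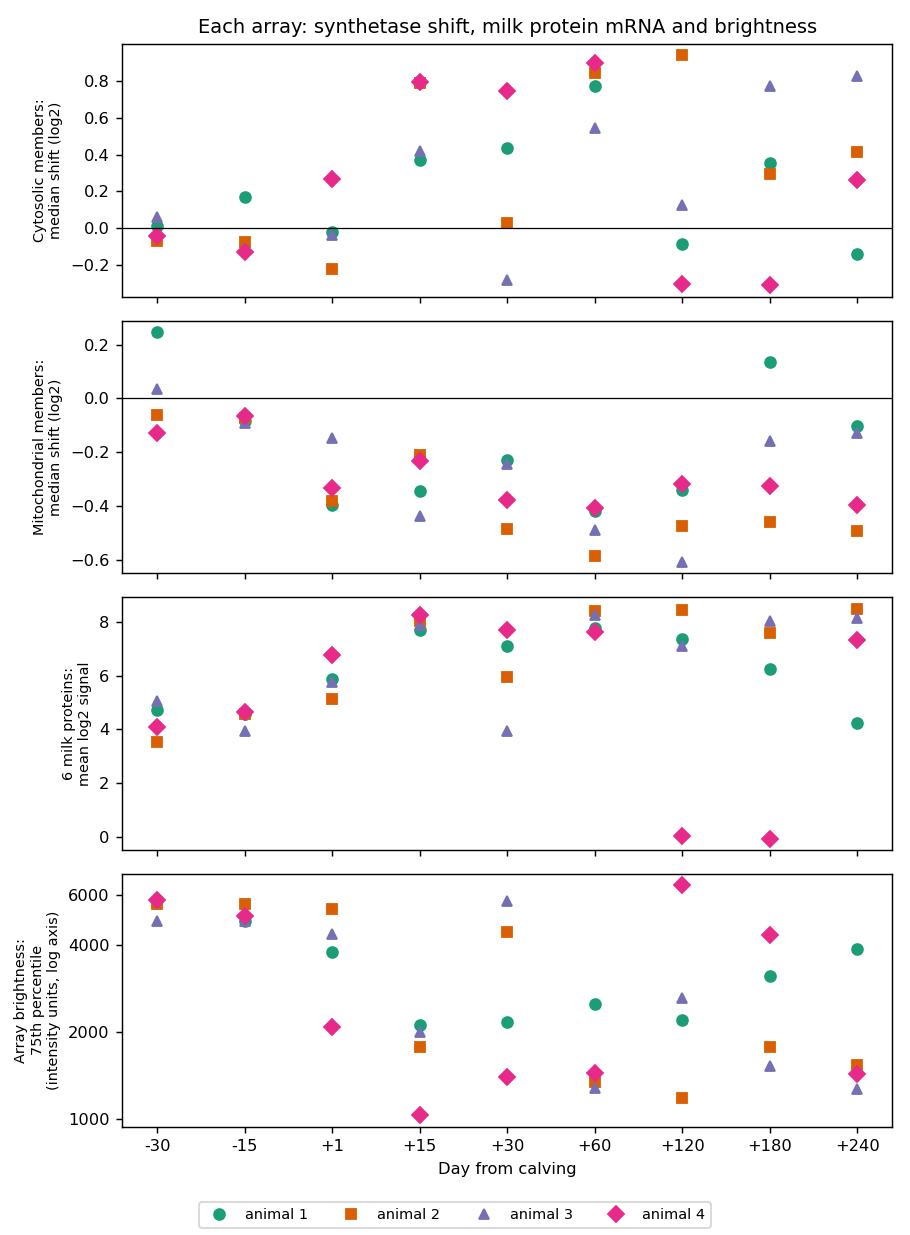
For each of the 36 arrays by day from calving, the median shift of the 18 cytosolic and of the 16 mitochondrial members from their day -30 means (log2), the mean log2 signal of 6 milk proteins, and the array brightness (75th percentile, log axis); symbols are the animals. At day +60 all 4 cytosolic shifts lie between 0.55 and 0.90, the mitochondrial ones between -0.59 and -0.41, and brightness between 1278 and 2512 units.

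Genes linked to the family were read at day +60 beside the same 29.3% of all genes called. Of 4 measured synthetase or synthetase-related genes outside the name pattern (FARSA, FARSB, TARSL2 and AARSD1) none was called, FARSA differing by 0.16 ± 0.26. Of 6 genes of cytosolic elongation factors and their subunits 4 rose: EEF1A1 by 1.33 ± 0.37, EEF2 by 1.10 ± 0.32, EEF1B2 by 1.01 ± 0.30 and EEF1D by 0.94 ± 0.33. Of 8 mitochondrial translation factors 1 was called, MTFMT, which formylates the initiator methionyl-tRNA (-0.39 ± 0.15). GFM1 (0.03 ± 0.18), an elongation factor, and GFM2 (-0.10 ± 0.20), which acts in ribosome recycling, were not.

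Of 16 genes of the amino acid response and serine synthesis, 6 rose and 3 fell. TRIB3, a pseudokinase induced by ATF4, was higher by 3.49 ± 0.71 and ATF4 itself by 1.91 ± 0.43, and PSPH and PSAT1 of serine synthesis were higher by 1.88 ± 0.63 and 1.81 ± 0.51. MTHFD2 and DDIT3 also rose. EIF2AK4, the kinase that senses uncharged tRNA, fell (-1.07 ± 0.20), as did SESN2 (-1.79 ± 0.42) and CEBPB (-0.63 ± 0.20). PHGDH (-0.28 ± 0.36), CTH (-1.32 ± 0.52) and ASNS (1.48 ± 0.60) were not called. The list thus held members in both directions.

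Of 10 amino acid transporters 5 rose and 1 fell. SLC1A5, a glutamine carrier, was higher by 3.11 ± 0.85, SLC7A5, which carries large neutral amino acids, by 2.30 ± 0.73, SLC1A4 by 2.13 ± 0.49 and SLC38A2 by 0.90 ± 0.34. SLC7A1 also rose, although its probe was above background on 19 of 36 arrays. SLC6A14 fell (-3.34 ± 0.79). Of 6 milk protein genes 3 passed the test, CSN1S2 (5.50 ± 1.45), LALBA (5.07 ± 1.90) and CSN3 (2.93 ± 0.80).

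The 31 measured markers of cell types were read at day +60 beside the same 29.3% of all genes called. KRT19 and ELF5 rose among 6 luminal markers, where KRT18 (-0.74) and CDH1 (-0.58) were not called. MYH11, OXTR and ACTA2 rose among 5 myoepithelial markers, where KRT14 (-0.94) was not called. FABP4 rose among 5 adipocyte markers, VWF and PECAM1 among 3 endothelial markers, and CD14 (3.79 ± 0.51) among 5 leukocyte markers, where CD3E (-0.94) and LYZ (-0.17) were not called. None of 5 fibroblast and 2 plasma cell markers was called. The mean log2 signal of the luminal markers ran from 3.14 to 3.49 at day -30 and from 3.46 to 3.90 at day +60, and that of the fibroblast markers from 3.53 to 4.06 and from 3.38 to 4.28. For the myoepithelial markers it ran from 2.17 to 2.78 and from 2.79 to 3.45, for the endothelial markers from 0.07 to 1.08 and from 0.91 to 1.63, and for the leukocyte markers from 1.08 to 1.31 and from 1.40 to 2.09. For the adipocyte markers it ran from -0.95 to 0.23 and from -1.10 to 3.07, and for the plasma cell markers from 0.64 to 1.55 and from -0.03 to 0.76. The part of cell composition in the synthetase differences was not tested.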

How the data were processed

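The authors deposited a table of log2 values, which per the labels come from GeneSpring 12. Checked against the scanner files, they are log2 signals less each array's 75th percentile. The table holds 34997 of 43653 probes with no missing value. The scanner files, written by Feature Extraction 10.7.3.1 per the file headers, were deposited with intensity values and other marks (0 or 1) for spots above background, of which 0 were saturated. They gave probe names, UMD 3.1 positions, sequences, background marks and brightness.

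The members and gene lists were chosen with earlier results of these data known. Of 87 probes of the 34 members 84 are in the table, and 29 members have several. The probe with the highest mean stood for each gene. Of the 34 symbols the yak gene list of RefSeq holds 15 as they stand, and 33 when a final digit may be added. Values of every array were printed for the 6 members with the largest F and the 2 highest and lowest at day +60, except that 1 member, kept in all counts, is not reported here. Of each related list the 4 members with the largest F were to be named, and others were named after their values were seen.

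Day was a fixed effect and animal a random block (consensus correlation 0.0531) in limma 3.58.1 (R 4.3.3, statmod 1.5.0, and version 1.17.8 of the data.table package), over 36 arrays in 1 fit, with two-sided tests adjusted by Benjamini-Hochberg over 20110 genes in each of 15 comparisons (8 with day -30, 7 between neighbouring days). Probes were compared in a second fit over all probes. The standard error rests on the spread over all days. The labels number the same 4 animals at all days: after subtracting day means, arrays of 1 animal correlated at 0.156 on average and arrays of different animals at -0.0523, and 33 of 36 arrays matched their own animal best. Each animal kept 1 slide position, so animal and position cannot be told apart. The scripts were tested on simulated data. Alternatives were other normalizations, background corrections, probe choices, blocks and fits, leaving out each animal, and, added after seeing the data, dropping both arrays of animal 4 with little milk protein mRNA. Slide as a block was not possible, since each slide holds 1 day. Tables and figures were made in Python 3.11.15 with pandas 2.3.3, numpy 2.4.6 and matplotlib 3.10.9.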

Additional observations from a re-analysis of the deposited data

Results flagged for a closer look

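Of 54 tests for a lone array, 1 for each of the 6 members printed array by array at each of the 9 days, 1 stood apart by Dixon's criterion at the 95% level, where chance gives about 1 in 20. At day +180 SARS2 read -0.563 in animal 1, above the other 3 animals at -1.78 to -1.59. The brightness of that array was 3118 units and its milk protein mean 6.27, both inside the range of the other arrays of that day. No cause was tested.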

How the results depend on the processing

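Of the 42 calls of members against day -30, 36 remained without the block for animal and 40 with animal as a fixed block. With no replicate block 15 members passed the F test and 15 were called at day +60 (2 at day +1), and with the fixed block 17 and 20. An ordinary model with that block gave 5 at day +30 and 4 at day +120. Quantile normalization kept 29 calls and gave 5 members at day +30, +120 and +180 and 1 from day +1 to day +15, with 6 cytosolic higher at day +60. Setting each array's median to 0 kept 32, with 1 at day +1 and 3 mitochondrial lower and 2 mitochondrial higher at day +60. Normexp kept 21, with 1 at day +1, 6 at day +15, 1 at day +30 and 9 at day +60 (2 mitochondrial lower), and turned PARS2 (0.425) and VARS2 (0.369). The mean of all probes kept 27, with 1 at day +1, 6 at day +15, 6 cytosolic higher at day +60, 6 at day +180 and 4 at day +240. Brightness as a covariate kept 15, with 7 at day +1, 0 at day +15, 3 at day +60 (0 cytosolic higher, 3 mitochondrial lower), 9 at day +120 and 10 at day +180. It turned MARS and YARS2 at day +15 (both -0.06) and CARS (-0.018), HARS (-0.154), MARS (-0.132), TARS (-0.063) and YARS (-0.131) at day +60. The 8 arrays of both days alone kept 34, with 0 at day +120, 1 at day +180, 5 from day -15 to +1 and 12 from day +1 to +15. Without both arrays of animal 4 that had little milk protein mRNA, an alternative added after seeing the data, all 42 calls remained and the counts were 23 (F test), 7 at day +120, 7 at day +180 and 2 from day +1 to +15. Requiring signal above background changed no call. Apart from those printed for day +60, shares of all genes called under these settings are not given here.

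Leaving out 1 animal gave 4 to 12 members by the F test, 0 to 2 at day +1, 1 to 4 at day +15, 1 to 3 at day +30, 8 to 10 at day +60 (cytosolic higher 3 to 6, mitochondrial lower 3 to 6), 0 to 2 at day +120, 0 to 5 at day +180 and 0 to 2 at day +240. At day +60 these fits called 13% to 21.1% of all genes, against 29.3% in the main fit. For the F test and the other days their share of all genes is not given here. Of all genes called at day +60, 43% were higher, against 58.7% with each array's median at 0, 83.9% with normexp, 47.9% with quantile normalization and 12% with brightness as a covariate. Normexp moved the median of all genes from -0.117 to 0.36 and the median setting moved it to 0.054. Relative to these, the cytosolic median was 0.95, 0.31 and 0.95 above, and the mitochondrial median 0.45, 0.57 and 0.45 below, in the main setting, normexp and the median setting. The cause of a lost or turned call was not tested. The 4 animals limit the precision.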
